A study of Drosophila melanogaster with 8 samples.

Results

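Ndf, strat, CG17230 and CG2129 are 4 genes of 522 in the poly(A) site count tables of this study, treated as a set because their reads fell when cbc, PCF11 or both were overexpressed in bam mutant testes of Drosophila melanogaster. The genes were picked by name from the summed reads of these same libraries, so their difference from the control is given as a description with no test. Testes were profiled by 3' end sequencing in 8 libraries, 2 for each of 4 genotypes, with about 150 pairs of testes pooled per library. All males carried nosGal4 on the X and bam86,bamGal4 over bam1, so every group lacked bam function and held both Gal4 drivers. The cbc group carried UAS>cbc-V5, the PCF11 group carried UAS>PCF11-RF-HA, the third group carried both transgenes, and the control was +/+ with no UAS element. The presence of a transgene and the protein it encodes therefore cannot be told apart against the control. Crosses were kept at 25 °C for 3 days and the progeny at 29 °C until dissection. Neither cbc nor Pcf11 has a listed site, so their overexpression was not analysed here.

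The end of a messenger RNA is made by cleavage of the nascent transcript and addition of a poly(A) tail, and many genes have several sites at which this can happen. In flies Clp1 is called Cbc, and with Pcf11 it forms cleavage factor II, and the series asks how the choice of site is regulated in an adult stem cell lineage. Germ cells need bam to leave the spermatogonial divisions, so bam mutant testes fill with early germ cells beside the somatic cyst cells. The read count at a gene's listed sites serves as its level, and the split of reads between these sites serves as its site choice. Ends without a listed site are not counted, so a move to such an end cannot be told apart from a fall in level. An annotated Ndf transcript ends at 10007861, 511 bases before the end of the proximal window. The CG17230 gene ends 1518 bases past its distal window. Ndf encodes the nucleosome-destabilizing factor, a PWWP-domain protein that helps RNA polymerase II pass nucleosomes. The gene strat (stratum) encodes the fly relative of the mammalian exchange factor Mss4, known in the ovarian follicle epithelium for acting with Rab8 to direct basement membrane proteins to the basal side.

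Each of the 4 genes had 2 listed windows of 30 bases, both on the plus strand. The files use BDGP6, and the reference annotation of that build placed the windows. Ndf (FBgn0043456) spans 2L 10003832 to 10008889. Its proximal window (10008342 to 10008372) ended 606 bases after the stop codon and its distal window (10008714 to 10008744) ended 978 bases after it, both inside the 3' UTR of transcripts RA and RB. The gene strat (FBgn0032020) spans 2L 8320328 to 8321285, with windows at 8320917 to 8320947 and 8321134 to 8321164 in the 3' UTR of its RA transcript, 100 and 317 bases after the stop codon. CG17230 (FBgn0046225) spans 3R 11437785 to 11467372. Its proximal window (11465608 to 11465638) ended exactly at the annotated end of RA and RB, and its distal window (11465824 to 11465854), 287 bases after the stop codon, lay in the 3' UTR of RC alone. CG2129 (FBgn0030008) spans X 8145839 to 8147855, with its proximal window at 8147424 to 8147454, 108 bases after the stop codon. Its distal window (8147828 to 8147858) ended 3 bases past the annotated end of the gene. None of these 8 windows overlapped another annotated gene. Strand was ignored in counting, so reads of a neighbour that runs past its annotated end could still be counted, which was not tested. CG7781, on the minus strand, ends at 8321280, within the annotated span of strat. The 2 sites lay 372 bases apart in Ndf, 217 in strat, 216 in CG17230 and 404 in CG2129, against a median of 429 (quartiles 225 and 748) over 505 gene entries with 2 sites.

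The 4 genes together took 0.363% and 0.333% of the reads at listed sites in the cbc libraries, 0.453% and 0.421% in the PCF11 libraries and 0.331% and 0.339% in the libraries with both, against 0.757% and 0.895% in the controls. Levels below are reads summed over a gene's windows, given as counts-per-million values (CPM) of the reads at listed sites after scaling by edgeR's TMM factors. Total reads at listed sites ran from 238162 to 333675 per library. They are not the depth of the libraries. Every one of the 24 overexpression values of the 4 genes lay below both control values of its gene. The same order, all 6 overexpression libraries below both controls, was found in 21.2% of the 523 entries tested, and since the genes were chosen on these values nothing is read from their count. In such bulk samples, fewer cells of a type and less RNA per cell cannot be told apart.

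Ndf had 2253 and 2027 CPM in the cbc libraries, 2709 and 2590 in the PCF11 libraries and 1927 and 2049 in the libraries with both, against 4386 and 5463 in the controls. The highest overexpression library, a PCF11 one, stood 1676 CPM below the lower control. The mean ± SD (n = 2 per group) was 2140 ± 160 with cbc, 2650 ± 84.5 with PCF11 and 1988 ± 86.3 with both, against 4924 ± 762 in the controls. On the log2 scale the difference from the control was -1.20 ± 0.16 (SE) with cbc, -0.89 ± 0.16 with PCF11 and -1.31 ± 0.16 with both. In linear terms the fitted level was 0.435, 0.538 and 0.403 times that of the control in these genotypes. The order of the means was control, PCF11, cbc and both, and the cbc libraries overlapped those with both.

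The reads of strat came to 423 and 604 CPM with cbc, 825 and 612 under PCF11 and 604 and 689 with both, against 1363 and 1663 in the controls. The 3 overexpression genotypes lay close together, with PCF11 overlapping both, and both overlapping cbc. Between the lowest PCF11 library and the highest cbc library the gap was 7.98 CPM. The log2 difference from the control was -1.56 ± 0.26 (SE) with cbc, -1.07 ± 0.26 with PCF11 and -1.23 ± 0.26 with both. With cbc the fitted level was 0.338 times the control.

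CG17230, for which no role is given here, had 804 and 446 CPM with cbc, 539 and 608 under PCF11 and 516 and 478 with both, against 1414 and 1269 in the controls. Its cbc libraries were the least alike of any overexpression pair of the gene, and they enclosed all values of the other 2 genotypes. The log2 difference from the control was -1.10 ± 0.27 (SE) with cbc, -1.22 ± 0.28 with PCF11 and -1.43 ± 0.28 with both. Without cbc library 1 the cbc difference was -1.59, and without cbc library 2 it was -0.74.

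CG2129 was the most thinly covered of the 4, with 39 and 54 reads in the cbc libraries, 111 and 87 in the PCF11 libraries and 77 and 61 in those with both, against 116 and 219 in the controls. Scaled, these were 135 and 219 CPM in the cbc libraries, 440 and 362 CPM in the PCF11 libraries and 260 and 214 CPM in those with both, against 452 and 665 in the controls. Both PCF11 libraries lay above the other 4 libraries with a transgene. They came within 11.5 CPM of the lower control, whereas the cbc libraries stood at least 233 CPM below it. The log2 difference was -1.67 ± 0.37 (SE) with cbc and -1.24 ± 0.36 with both. With PCF11 it was -0.48 ± 0.36, with a 95% interval of -1.23 to 0.27, and it shrank to -0.17 when control library 2 was left out.

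**Figure D1:**
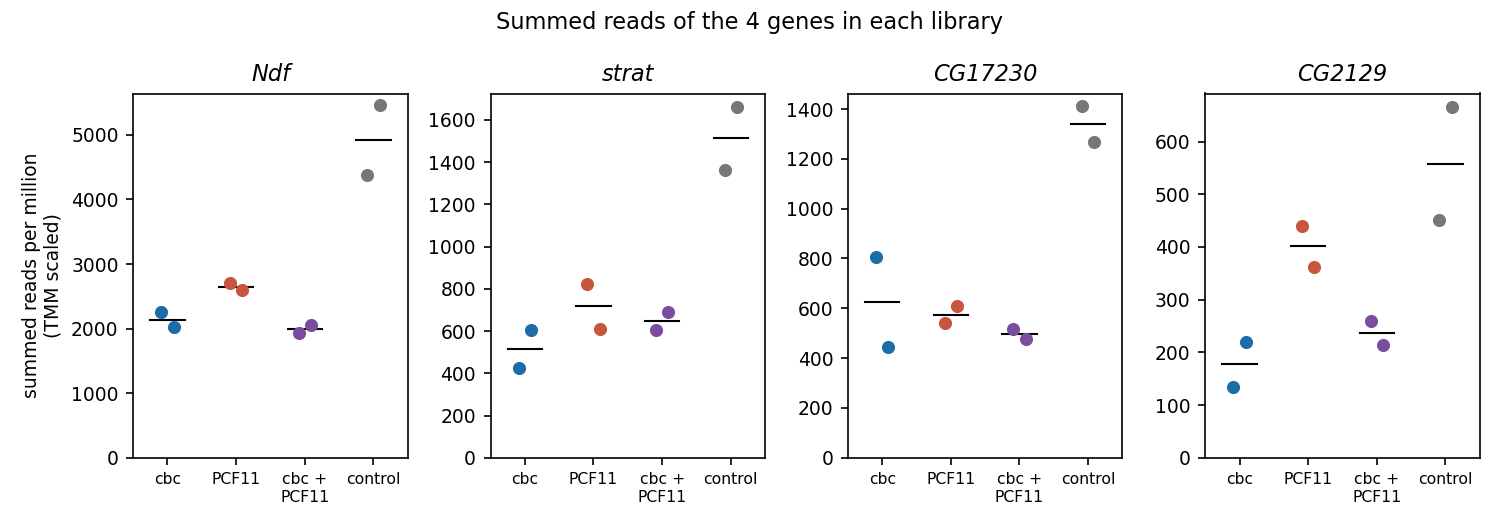
Summed reads of Ndf, strat, CG17230 and CG2129 in each library, in TMM-scaled CPM (y axis, from 0), by genotype (x axis). Points are libraries and bars are the means of 2; every overexpression library lies below both controls, and for CG2129 the PCF11 library at 440 CPM comes within 11.5 CPM of the lower control.

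Against all entries, the 4 genes sat at the low end. They were chosen because these same values fell, so nothing is read from their ranks or medians. The median log2 difference over 523 entries was -0.03 with cbc, 0.00 with PCF11 and 0.02 with both, against -1.38, -0.98 and -1.27 for the 4 genes. Counted from the largest fall, CG2129 ranked 3 and strat 4 of 523 with cbc, while CG17230 ranked 7 and strat 12 with PCF11. Ndf ranked 12, 20 and 14 in the cbc, PCF11 and combined genotypes. CG2129 with PCF11, at rank 98, was the exception among the 12 values. After Benjamini-Hochberg adjustment of edgeR's quasi-likelihood p-values, 10.5% of entries fell past an adjusted p of 0.05 with cbc, 9.94% with PCF11 and 14.9% with both. The 3 comparisons share the 2 control libraries, so a low place in several of them is not repeated evidence. For Ndf, strat and CG2129, control library 2 held more than control library 1, and for CG17230 it held less.

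**Figure D2:**
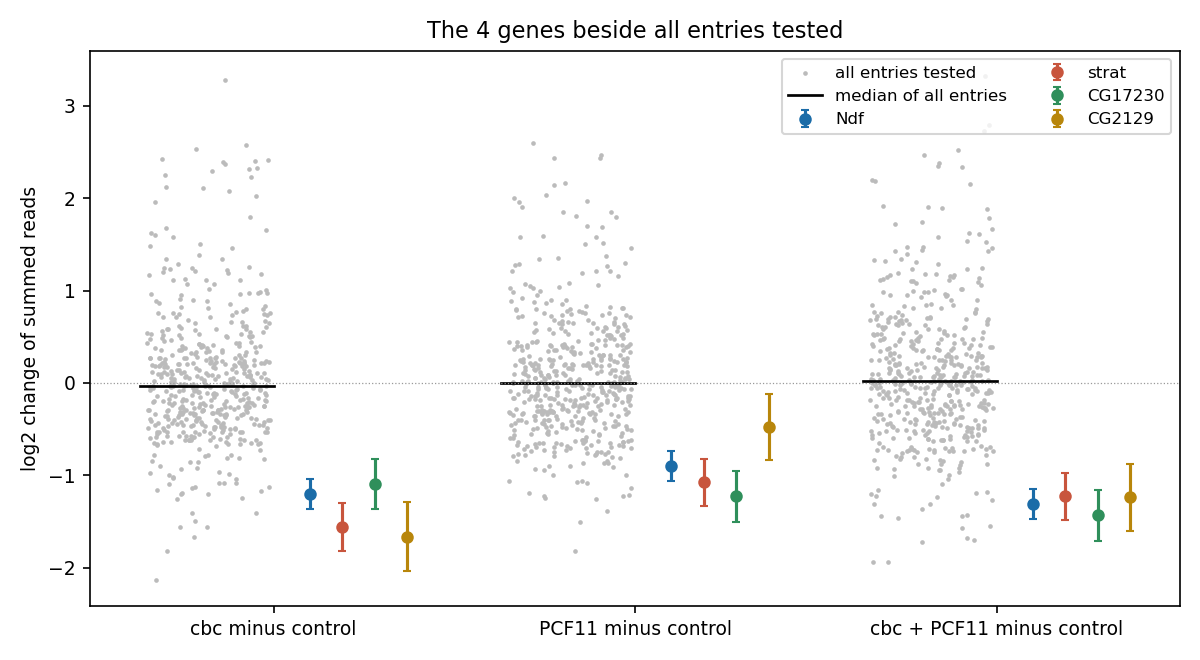
Log2 difference of summed reads from the control (y axis) with cbc, PCF11 and both (x axis). Grey points are all 523 entries tested, black bars their medians, and coloured points Ndf, strat, CG17230 and CG2129 with SE; the 4 genes lie between -1.67 and -0.48.

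Other genes fell as far. Outside the 4 genes, the largest falls that passed with cbc were in CG31697 (98.6 against 438 CPM, log2 -2.14 ± 0.52, edgeR adjusted p = 0.00632), gdl-ORF39 and CG3982 (487 against 1113 CPM, log2 -1.19 ± 0.30, edgeR adjusted p = 0.00792). The entry gdl-ORF39 had 156 CPM with cbc, 159 with PCF11 and 125 with both, against 416 in the controls. With PCF11 the largest were CG31697, gdl-ORF39 and lola, a zinc finger transcription factor with 854 against 1995 CPM (log2 -1.23 ± 0.23, edgeR adjusted p = 0.00109). With both they were CG3309 (70.5 against 269 CPM, log2 -1.93 ± 0.62, edgeR adjusted p = 0.0264), gdl-ORF39 and CG31697. Each of these calls except that of lola with PCF11 was lost in at least 1 of the 4 fits that left out a library of its comparison, with adjusted p-values up to 0.264 by edgeR; CG3309 with both and gdl-ORF39 with PCF11 were lost in 3 and 4 of them.

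Whether the 3 overexpression genotypes differ from each other uses the control libraries through the shared estimate of spread, the scaling factors and the minimum of reads. These 12 differences of summed reads were tested. The genes were chosen as low in the same overexpression libraries, so the tests are not free of that choice. None of the 12 passed after adjustment over 523 entries. The widest was CG2129 in cbc against PCF11, with a log2 difference of -1.19 ± 0.38 (SE; 95% interval -1.99 to -0.39) and both cbc libraries below both PCF11 libraries. Its raw p was 0.00620 and its adjusted p 0.382 by edgeR's quasi-likelihood test, and over the alternatives tried the adjusted p ran from 0.0549 to 0.992. CG2129 with both transgenes against PCF11 gave -0.76 (95% interval -1.54 to 0.02, edgeR adjusted p = 0.720), and against cbc 0.43 (-0.38 to 1.24, edgeR adjusted p = 0.591).

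For Ndf, both transgenes against PCF11 gave -0.41 (95% interval -0.76 to -0.07, edgeR adjusted p = 0.675), with both libraries of the combined genotype below both PCF11 libraries. The gene's cbc libraries against PCF11 gave -0.31 (-0.65 to 0.04, edgeR adjusted p = 0.720), and the combined genotype against cbc gave -0.11 (-0.45 to 0.24, edgeR adjusted p = 0.731). For strat the cbc difference from PCF11 was -0.49 (-1.04 to 0.07, edgeR adjusted p = 0.720). The combined genotype differed from cbc by 0.34 (-0.22 to 0.89) and from PCF11 by -0.15 (-0.70 to 0.39) in that gene. For CG17230 the cbc difference from PCF11 was 0.13 (-0.46 to 0.72), and the combined genotype differed from cbc by -0.33 (-0.93 to 0.26) and from PCF11 by -0.21 (-0.80 to 0.39). The edgeR adjusted p of these last 5 differences ran from 0.545 to 0.938. Apart from CG2129 in cbc against PCF11 and Ndf in the combined genotype against PCF11, every interval of the 12 included 0, which does not show that the genotypes act alike. Among all entries edgeR called 0 of 523 (0%) in cbc against PCF11, 2 (0.382%, alpha-Est5 and nrv2) in the combined genotype against cbc and 1 (0.191%, nrv2) against PCF11. For cbc against PCF11, 34 entries had an unadjusted p under 0.05, DESeq2 called 0, and 11 passed when edgeR was fitted to those 4 libraries alone.

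**Figure D3:**
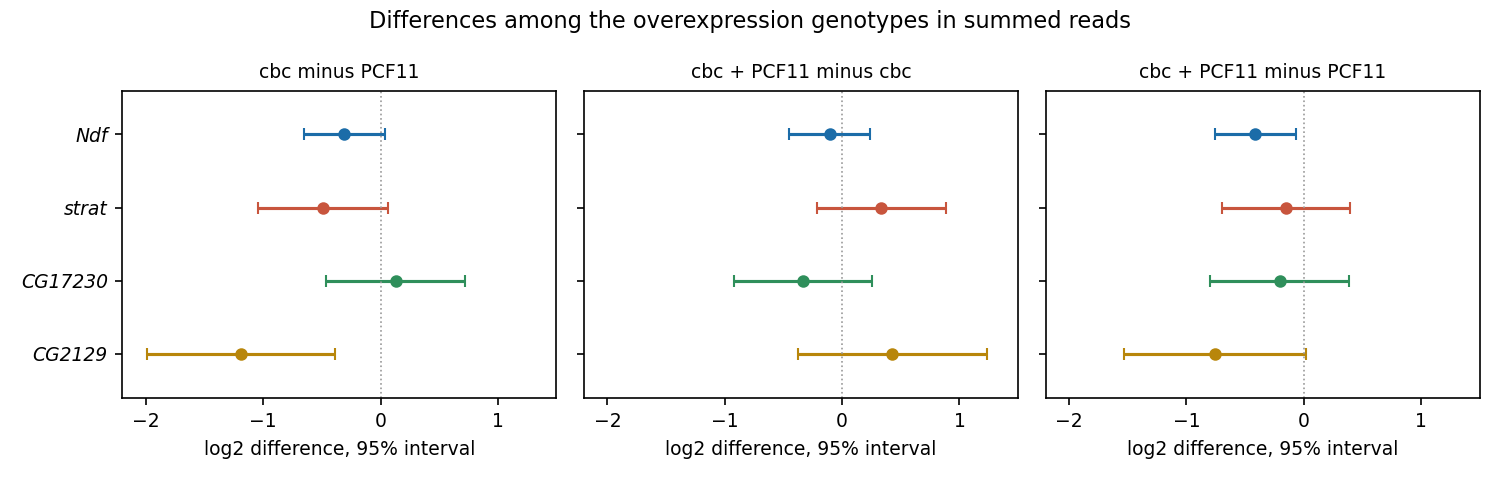
Log2 difference of summed reads (x axis) between the overexpression genotypes for each gene (y axis), with 95% intervals. The interval of CG2129 in cbc minus PCF11 (-1.99 to -0.39) and that of Ndf in both minus PCF11 (-0.76 to -0.07) lie below 0, and neither passed after adjustment over 523 entries.

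The fall at each window is described gene by gene, and a difference between genes in how the windows shared it was not tested. In Ndf the distal window had 463 and 422 reads with cbc, 549 and 469 under PCF11 and 421 and 458 with both, against 992 and 1584 in the controls. Its proximal window had 187 and 78 reads with cbc, 134 and 153 under PCF11 and 150 and 125 with both, against 134 and 216 in the controls. So the distal reads stood apart from the controls in every overexpression library, whereas the proximal reads overlapped them. On the log2 scale, fitted per window, the distal difference was -1.36 ± 0.20 (SE) with cbc, -1.06 ± 0.20 with PCF11 and -1.50 ± 0.20 with both. The proximal difference was -0.26 ± 0.33, 0.00 ± 0.32 and -0.30 ± 0.33 in the same genotypes. Of the CPM lost from Ndf, 96.2% with cbc, 99.8% with PCF11 and 96.0% with both came from the distal window, which held 88.0% of the gene's CPM in the controls. The proximal log2 difference changed sign without cbc library 2 (0.12 with cbc) and without control library 2 (0.18 with PCF11).

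In strat the fitted level was lower than the control at both windows, but the proximal fall was near its error with PCF11 and with both. The distal window had 104 and 128 reads with cbc, 181 and 119 under PCF11 and 143 and 169 with both, against 317 and 471 in the controls. The proximal window had 18 and 21 reads with cbc, 27 and 28 under PCF11 and 36 and 27 with both, against 33 and 77 in the controls. In CPM, all 6 overexpression libraries lay below both controls at either window, and the nearest proximal values were 121 CPM in library 1 of the combined genotype and 129 CPM in control library 1. The proximal log2 difference was -1.27 ± 0.61 (SE) with cbc, -0.69 ± 0.60 with PCF11 and -0.73 ± 0.59 with both. The corresponding distal values were -1.58 ± 0.29, -1.12 ± 0.28 and -1.30 ± 0.28, so proximal and distal differed by less than the error of the proximal estimate. Without control library 2 the proximal difference shrank to -0.77 with cbc, -0.18 with PCF11 and -0.23 with both. Of the CPM lost from strat, 89.3% with cbc, 91.3% with PCF11 and 91.6% with both came from the distal window, close to the 88.0% of its CPM that this window held in the controls.

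CG17230 was read almost wholly at its distal window. That window had 216 and 110 reads with cbc, 130 and 136 under PCF11 and 133 and 134 with both, against 363 and 398 in the controls, and its log2 difference was -1.10 ± 0.28 (SE), -1.26 ± 0.28 and -1.49 ± 0.28. The proximal window, at the annotated end of RA and RB, had 16 and 0 reads with cbc, 6 and 10 under PCF11 and 20 and 2 with both, against 0 and 20 in the controls. The libraries of 1 group differed as widely there as the groups did, and no difference was detectable at this depth.

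In CG2129 the proximal window was near empty outside the controls. It had 1 and 0 reads with cbc, 0 and 1 under PCF11 and 0 and 0 with both, against 13 and 4 in the controls. As a share of the gene's reads, the cbc group's 1 of 93 was 0.212 times the control's 17 of 335 (95% counting interval 0.00507 to 1.35), and the PCF11 group's 1 of 198 was 0.0995 times (0.00238 to 0.635). Both transgenes together gave 0 of 138, which allows a share of up to 2.17%, against 5.07% in the pooled controls. Control library 1 held 13 of the 17 control reads. The intervals pool the 2 libraries of a group and leave out the spread between libraries, so they are no test against the control. The distal window had 38 and 54 reads with cbc, 111 and 86 under PCF11 and 77 and 61 with both, against 103 and 215 in the controls. The distal window took 92.2%, 81.3% and 90.2% of the CPM lost with cbc, PCF11 and both, less than the 94.4% of the gene's CPM that it held in the controls. Here PCF11 library 1, at 440 CPM, lay above control library 1, at 401 CPM. The PCF11 log2 difference of the distal window was -0.39 ± 0.37 (SE) and turned to 0.011 without control library 2; with cbc it was -1.57 ± 0.39 and with both -1.14 ± 0.38.

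**Figure D4:**
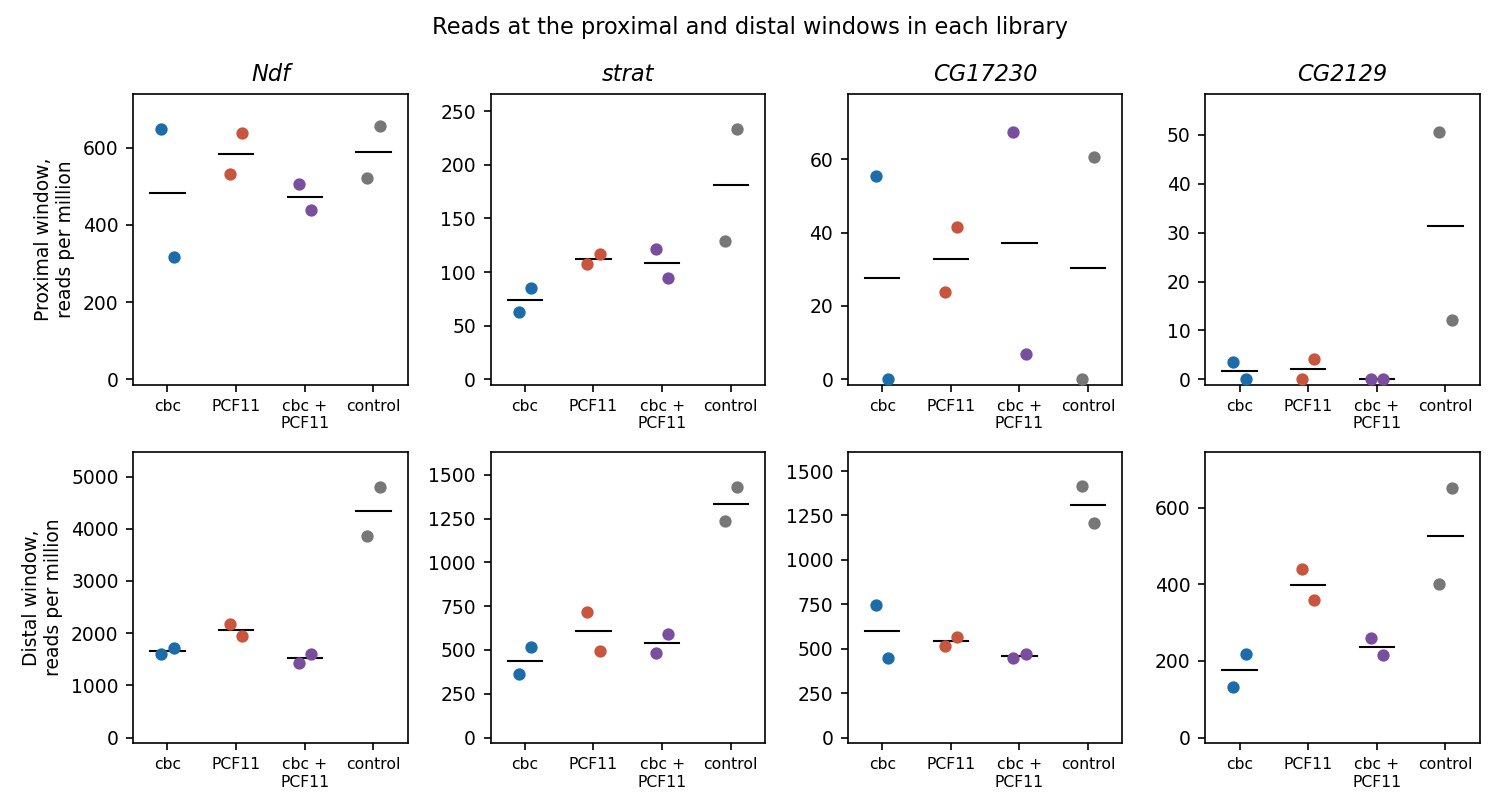
Reads in CPM at the proximal (top) and distal (bottom) window of each gene in each library (y axes, each on its own scale), by genotype (x axis). Points are libraries and bars the means of 2; at the distal window 23 of 24 overexpression values lie below both controls, and at the proximal window 15 of 24 do.

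All 6 overexpression libraries lay below both controls at the distal window in 3 of the 4 genes, CG2129 being the exception, and at the proximal window in strat and CG2129. Over all entries, 22.4% had that order at the distal window and 10.9% at the proximal window. The rule that chose the genes used these contrasts, so nothing is read from the counts.

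Site choice follows from the same reads. Proximal usage, the percentage of a gene's reads at its proximal window, was 28.8% and 15.6% for Ndf in the cbc libraries, 19.6% and 24.6% in the PCF11 libraries and 26.3% and 21.4% in those with both, against 11.9% and 12% in the controls. All 6 overexpression libraries were above both controls, an order found in 19% of 516 entries. By edgeR, usage differed from the control past an adjusted p of 0.05 in 7.56% of entries with cbc, 10.5% with PCF11 and 10.3% with both. The nearest was cbc library 2, whose exact 95% binomial interval of 12.5% to 19.1% overlapped the 10.5% to 13.6% of control library 2. Mean usage of Ndf was 22.2% ± 9.31 with cbc, 22.1% ± 3.52 with PCF11 and 23.9% ± 3.41 with both, against 12% ± 0.0703 in the controls (SD, n = 2 per group). The log2 odds ratio against the control was 1.03 ± 0.40 (SE) with cbc, 1.06 ± 0.39 with PCF11 and 1.20 ± 0.40 with both. Reads had no molecular identifiers, so such intervals and limits cover counting error only.

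In strat, proximal usage was 14.8% and 14.1% in the cbc libraries, 13.0% and 19% in the PCF11 libraries and 20.1% and 13.8% in those with both, against 9.43% and 14.1% in the controls. The PCF11 and combined groups each overlapped the controls, and the log2 odds ratios of 0.36 ± 0.59 (SE), 0.51 ± 0.58 and 0.61 ± 0.58 were near or below their own error. CG17230 had usage of 6.90% and 0% in the cbc libraries, 4.41% and 6.85% in the PCF11 libraries and 13.1% and 1.47% in those with both, against 0% and 4.78% in the controls. A count of 0 allows up to 2.73% of 110 reads in cbc library 2 and up to 0.826% of 363 reads in control library 1. Its groups overlapped in every comparison. In CG2129 usage stood at 2.56% and 0% in the cbc libraries, 0% and 1.15% in the PCF11 libraries and 0% in both libraries with the 2 transgenes, against 11.2% and 1.83% in the controls. Ndf and CG2129 thus differed from the control in opposite directions in mean usage, on 350 and 17 control reads at the proximal window. For CG2129 this rests on control library 1, which held 13 of the 17 reads. Its cbc library 1, at 2.56%, lay above control library 2, at 1.83%.

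**Figure D5:**
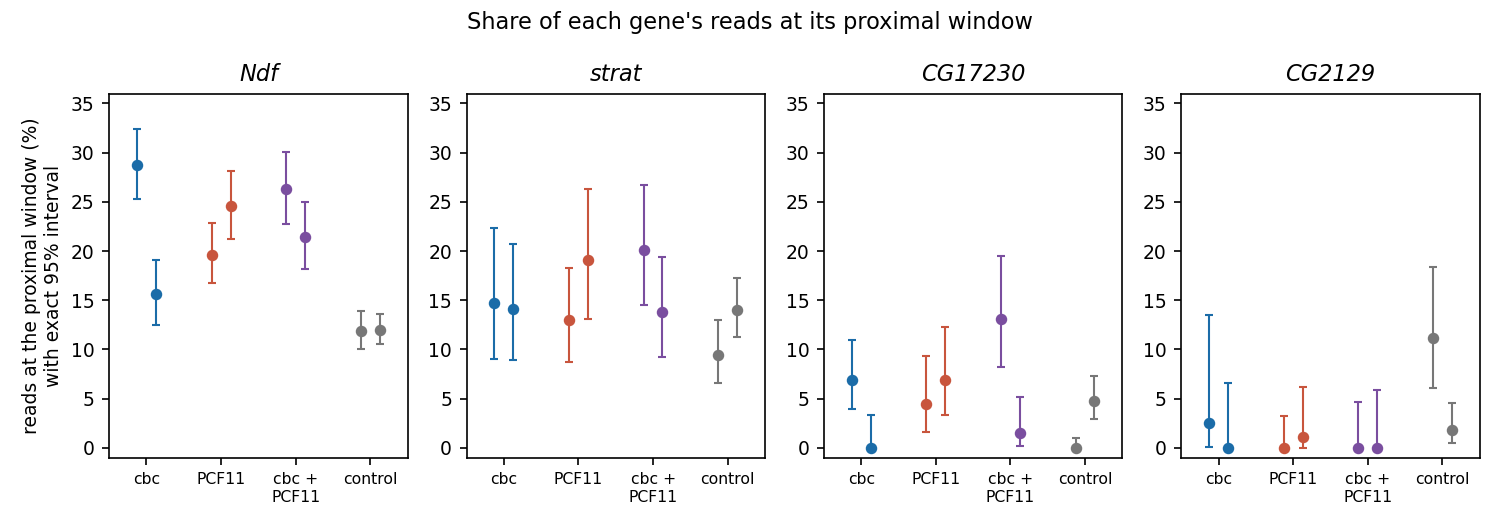
Percentage of each gene's reads at its proximal window in each library (y axis), by genotype (x axis), with exact 95% binomial intervals. Ndf runs from 15.6% to 28.8% in the overexpression libraries, against 11.9% and 12% in the controls; the CG17230 groups overlap, and the CG2129 values rest on 0 or 1 proximal read per overexpression library.

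Proximal usage was also tested between the overexpression genotypes, for Ndf, strat and CG17230, since CG2129 had 1 or no proximal read in each of these groups. None of the 9 tests passed, with edgeR adjusted p-values over 516 entries from 0.954 to 1. For Ndf the log2 odds ratio was -0.02 in cbc against PCF11 (95% interval -0.92 to 0.88), 0.17 in the combined genotype against cbc (-0.74 to 1.08) and 0.14 against PCF11 (-0.76 to 1.05). The widest of the 9 was 0.88 for CG17230 in the combined genotype against cbc (-3.03 to 4.79), an interval too wide to place it. Over all entries edgeR called 0 of 516 (0%) in each of these comparisons. At an unadjusted p under 0.05 there were 44, 32 and 18 entries in cbc against PCF11, the combined genotype against cbc and the combined genotype against PCF11, and DESeq2 called 5, 4 and 1.

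The authors' deposited table of each comparison lists a proximal percentage for Ndf and strat in all 3, for CG17230 in the PCF11 comparison alone (5.63% against 2.39%), and for CG2129 in none. In the authors' deposited tables Ndf stands at 22.2%, 22.1% and 23.9% with cbc, PCF11 and both, against 12% in the control.

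Over the 8 libraries, log2 CPM of the 4 genes ran closely together in most pairs, which the shared split between controls and the rest already imposes. Pearson's r was 0.91 for Ndf with strat, 0.90 for Ndf with CG17230, 0.89 for strat with CG2129 and 0.82 for Ndf with CG2129. It was 0.71 for strat with CG17230 and 0.53 for CG17230 with CG2129. The entries most like Ndf were CG8878 (r = 0.97), mahe (0.97) and Kaz (0.95), and those most like strat were CG8878 (0.92), Ndf itself (0.91) and Med (0.90), the co-Smad of BMP signalling. For CG17230 they were CG4266 (0.98), enc (0.98) and Imp (0.96), an RNA-binding protein of the testis niche. For CG2129 they were CG7218 (0.93), mod(mdg4) (0.93), a BTB protein of chromatin insulators, and Dgp-1 (0.89). The mod(mdg4) entry meant is mod(mdg4)-PAA, with log2 differences from the control of -1.25 with cbc, -0.29 with PCF11 and -1.44 with both. The gene's other entry, mod(mdg4)-PA, had 0.13, -0.52 and -0.19, and neither entry passed in any of the 3 comparisons (lowest edgeR adjusted p = 0.0766).

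Ndf acts on chromatin during elongation, and 9 of 68 listed nucleosome and elongation genes were measured, in 10 entries. The gene lists here and below were chosen with earlier results of these data known, so nothing is read from their counts. With cbc 0 entries fell and 4 rose, with PCF11 0 fell and 2 rose, and with both 1 fell and 4 rose. Over all 523 entries, 10.5% fell and 12.6% rose with cbc, 9.94% fell and 11.5% rose with PCF11, and 14.9% fell and 18% rose with both. The measured entries had median log2 differences of 0.01, -0.17 and -0.10 in these genotypes, against -0.03, 0.00 and 0.02 over all entries.

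TH1, part of the NELF complex that holds polymerase at a pause, had 2586 and 2939 CPM with cbc, 1682 and 2153 under PCF11, and 1117 and 2386 under both, against 619 and 483 in the controls. It rose in all 3 genotypes (edgeR adjusted p = 2.84e-05, 3.33e-04 and 3.70e-04). JIL-1, a histone H3 kinase, had 2028 and 1658 CPM with cbc, 1440 and 1432 under PCF11, and 584 and 1564 under both, against 502 and 449 in the controls (edgeR adjusted p = 3.96e-04, 0.00215 and 0.0133). Its libraries with both were far apart: without library 2 of that genotype the log2 difference was 0.31, against 1.17 with all libraries, and the call was lost (edgeR adjusted p = 0.460). The same library changed the size of the TH1 rise with both, which was 1.67 on the log2 scale with it and 1.04 without it. CycT, a subunit of the elongation factor P-TEFb, and Hcf, a chromatin cofactor, rose with cbc (log2 0.89 and 1.21) and with both (0.71 and 0.89), and each of these 4 calls was lost in 2 of the 4 fits without a library, as was that of JIL-1 with PCF11 in 1 fit (edgeR adjusted p = 0.0528). Hcf had 773 and 1641 CPM with both, against 752 and 549 in the controls, and a log2 difference of 0.27 without library 2 with both (edgeR adjusted p = 0.570). E(bx) of the NURF remodeller fell with both in its entry E(bx)-PC, which had 1626 and 1304 CPM, against 1862 and 2856 in the controls (edgeR adjusted p = 0.0212). Its log2 difference was -0.69, and only -0.35 without control library 2. The gene's other entry, E(bx)-PA, did not pass with both (log2 -0.51, edgeR adjusted p = 0.0945).

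For strat, 10 of 65 listed Rab, exocyst and secretion genes were measured, and Rab8 was not among them. With cbc 1 fell and 3 rose, with PCF11 2 fell and 2 rose, and with both 1 fell and 3 rose, beside the shares of all entries given for the elongation genes. The median log2 difference was 0.32 with cbc, 0.50 with PCF11 and 0.46 with both. Rab40 fell in all 3 genotypes, to means of 599, 673 and 683 CPM, against 1228 in the controls (edgeR adjusted p = 0.0101, 0.0300 and 0.0262, each over 0.05 without control library 1). Rab11, the recycling endosome GTPase, had 5469 and 5583 CPM with cbc, 4034 and 4543 under PCF11, and 2601 and 7003 under both, against 1239 and 868 in the controls. The gene fwd, a phosphatidylinositol 4-kinase of cytokinesis, had means of 2268, 1841 and 1761 CPM, against 710 in the controls. Both rose in all 3 genotypes (highest edgeR adjusted p = 2.61e-04 for Rab11 and 2.06e-04 for fwd), and the log2 difference of Rab11 with both was 1.32 without library 2 of that genotype, against 2.19 with it. Sec71, an exchange factor for Arf GTPases, rose with cbc (378 and 482 against 7.79 and 134 CPM, edgeR adjusted p = 0.0137), Rab30 rose with both (edgeR adjusted p = 0.0435), and the syntaxin Syx7 fell with PCF11 (edgeR adjusted p = 0.0401). Each of these last 3 calls was lost in at least 1 fit without a library.

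Of 50 listed C2H2 zinc finger genes, 9 were measured, in 10 entries. With cbc 1 entry fell and 1 rose, close to the shares of all entries. With PCF11 3 fell and 1 rose, where 9.94% of all entries fell and 11.5% rose. With both 3 fell and 0 rose, where 14.9% of all entries fell and 18% rose. The falls with both include lola-PD and lola-PAA, which are entries of the same gene. Entry lola-PD fell in all 3 genotypes (log2 -0.81, -1.23 and -1.46) and lola-PAA with both (-0.92). The BTB factor chinmo fell with PCF11 and with both (-0.64 and -0.74) and ken with PCF11 (-0.87). Clamp, a protein of dosage compensation, rose with cbc (1.20), and cg rose with PCF11 (0.75). By edgeR the adjusted p of lola-PD was 0.0146, 0.00109 and 1.72e-04 in the 3 genotypes. With each library left out in turn, lola-PD with PCF11 and with both and chinmo with both passed in every fit, and each of the other calls of this list was lost in at least 1.

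By chromosome, Ndf and strat lie on 2L, where 6.19% of 97 entries fell with cbc, 9.28% with PCF11 and 12.4% with both. On 3R, which holds CG17230, the shares of 126 entries were 9.52%, 9.52% and 16.7%, and on the X, which holds CG2129, they were 11.4%, 10.1% and 16.5% of 79 entries.

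The labelled tissue could be checked on few markers, since most of them have no listed site. Of 10 germ-line markers orb and Rbp9 were measured, and their summed level was 4187 to 4537 CPM with cbc, 3582 to 3935 with PCF11 and 3535 to 3799 with both, against 5503 to 5745 in the controls. Within that sum orb, a translational regulator of germ cells, fell in all 3 genotypes (log2 -0.59, -1.08 and -1.16; edgeR adjusted p = 0.0168, 3.33e-04 and 1.21e-04), while Rbp9 had -0.09, -0.05 and -0.06. The orb call with cbc was lost without either cbc library (edgeR adjusted p up to 0.156). Of 10 somatic cyst and hub markers chinmo, Imp and zfh1 were measured, at a summed 14772 to 14782 CPM with cbc, 11940 to 13586 with PCF11 and 12254 to 12369 with both, against 20004 to 21509 in the controls. Imp fell in all 3 genotypes (highest edgeR adjusted p = 9.50e-04), and zfh1 had log2 differences of 0.25, -0.16 and 0.03. Most of that sum was Imp, with a control mean of 13346 CPM, beside 5976 for chinmo and 1435 for zfh1. The 3 genes did not move alike, so their sum is no measure of the somatic cells. Of 13 spermatocyte markers only twe was measured, at 402 to 547, 317 to 325 and 274 to 348 CPM, against 455 to 573 in the controls, and none of the 8 spermatid or 8 sheath, muscle and fat markers had a listed site. No measured marker was at 0. The part of these levels in the falls of Ndf, strat, CG17230 and CG2129 was not tested.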

How the data were processed

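The authors deposited raw read counts for 30-base poly(A) windows. They used PolyA-miner, per the file headers and logs (minimum of 10 reads per gene, site share of 0.05, no molecular identifiers, strand ignored), on reads aligned with Bowtie and handled with SAMtools per the submitters' processing notes, which name dm6 and BDGP6. The authors' deposited proximal usage is a fraction of a gene's reads. Library preparation used a Lexogen forward QuantSeq kit per the labels' protocols. The control counts are repeated in each of the 3 tables and were used once.

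Counts were summed per entry and tested with edgeR 4.0.16 (TMM, quasi-likelihood, all 8 libraries, R 4.3.3) over 523 entries with a mean of 10 or more reads (6 left out). Proximal usage was tested in a model with library, site and site-by-genotype terms over 516 entries (13 left out). These had a mean of 10 or more reads and a total of at least 5 reads over the 8 libraries on either side. Coordinates are as deposited. Of 17807 genes in the authors' list, 17017 matched the BDGP6 annotation by symbol, 99.6% with identical ends. The intervals of shares are exact binomial. Limits for a count of 0 use 3 counts.

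The 4 genes, the gene lists and the tests were chosen with earlier results of these data known. Besides the 4 genes, named genes are the 3 most correlated entries per gene, the 3 largest other falls per comparison and list members that passed. The marker genes measured and the entries called between genotypes are also named; entries of that last kind were chosen after their values were seen. The labels call the libraries duplicates without stating separate cultures, so the spread that p-values measure is that between these libraries, which may be technical. Duplicate libraries differed by more than counting error, with chi-square over degrees of freedom from 6.23 (cbc) to 15.6 (control). Alternatives were DESeq2 1.42.0, other scaling factors, other minimums of reads, the most distal site, a block for the replicate number, the 4 libraries compared and each library left out. The tests were also run on simulated data with the same spread for every entry and usage shifts larger than those of Ndf and strat. That run does not show how well differences as small as theirs would be found.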

Additional observations from a re-analysis of the deposited data

How the results depend on the processing

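The falls of Ndf, strat, CG17230 and CG2129 against the control kept their direction under every alternative run. All 24 overexpression values lay below both controls, so leaving out 1 library could not turn a sign. Leaving out 1 library, the log2 differences of Ndf ran from -1.35 to -1.03 with cbc, -1.04 to -0.73 with PCF11 and -1.46 to -1.14 with both. With cbc they ran from -1.84 to -1.33 for strat, -1.59 to -0.74 for CG17230 and -2.05 to -1.35 for CG2129. With PCF11, CG2129 ran from -0.73 to -0.17.

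Counts of entries moved more. Against the control, leave-one-out counts for summed reads were 68 to 144 with cbc, against 121 with all libraries, 46 to 121 with PCF11 (112), and 95 to 163 with both (172), the lowest without cbc library 2, PCF11 library 1 and library 2 with both. For proximal usage they were 3 to 25, 12 to 49 and 7 to 44, against 39, 54 and 53. On only the 4 libraries compared, usage gave 23, 29 and 15, and DESeq2 gave 62 with cbc. Between genotypes, summed reads gave 11 for cbc against PCF11 on the 4 libraries alone (0 on all 8). The combined genotype against cbc gave 4 by DESeq2 or on 4 libraries and 0 to 10 leaving out 1 library, against 2. Against PCF11 it gave 2 by DESeq2 and 0 without scaling factors, with a mean of 50 reads or with any library left out, against 1. Usage between genotypes gave 5, 4 and 1 by DESeq2, against 0 each. The cause was not tested.

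The replicate numbers did not pair the libraries (correlations of deviations -0.09 to 0.12). With the replicate number as a block, the counts for the combined genotype were 1 against cbc and 0 against PCF11, and the proximal window of CG17230 changed sign, to -0.11 with PCF11 and -0.21 with both.

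Other differences changed sign too. By DESeq2 the CG17230 usage difference of both against PCF11 was -0.12, and without scaling factors the Ndf proximal window with PCF11 was 0.0089. Leaving out 1 library, summed reads ran from -0.36 to 0.49 (CG17230, cbc against PCF11), -0.69 to 0.16 (CG17230, both against cbc) and -0.37 to 0.071 (strat, both against PCF11). Usage between genotypes, in the order cbc against PCF11, both against cbc and both against PCF11, ran from -0.61 to 0.52, -0.37 to 0.76 and -0.064 to 0.35 for Ndf, from -0.48 to 0.18, -0.078 to 0.58 and -0.23 to 0.43 for strat, and from -1.04 to 0.31, -0.13 to 2.03 and -0.15 to 1.33 for CG17230. Usage of CG17230 with cbc ran from -0.41 to 1.94. Proximal windows ran from -0.91 to 0.12 with cbc and -0.16 to 0.18 with PCF11 for Ndf, and from -1.06 to 0.80, -0.88 to 0.42 and -0.67 to 1.08 with cbc, PCF11 and both for CG17230. The distal window of CG2129 with PCF11 ran from -0.70 to 0.011. Alternatives that left a group with 3 or fewer proximal reads gave 14 cases without a value. With 2 libraries per group, and a proximal window of 0 to 20 reads in CG17230 and CG2129, depth limits what can be said of their site choice.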
